A study of Homo sapiens with 4 samples.

Results

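Among the replication origins mapped in HCT116 cells with unaltered RepID (WT), 1518 had a RepID-binding region close by but outside their own borders. An origin here is a region enriched in nascent strands, the short DNA strands made where replication has begun. These flanking origins were chosen as the WT regions on chromosomes 1 to 22, under 20 kb wide, that overlapped no RepID region and had one at a gap of 0 to 2000 bp. They were 1518 of the 76059 WT origins on these chromosomes under that width, and the WT list held 78859 origins in all. They were selected on the positions of the WT and RepID regions, so gap, side and WT borders are given as descriptions, and the comparisons use the list from RepID knockout (KO) cells. The selection rule does not read the KO list, but it was set with earlier results of these data, KO results included, already known.

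RepID, also known as PHIP or DCAF14, is a WD40-repeat protein of the family that associates with DDB1 and the ubiquitin ligase scaffold CUL4. In mammalian cells the origin recognition complex and the MCM helicase are loaded with little sequence preference, and proteins that bind a subset of origins are candidates for deciding where initiation occurs. Origins tend to lie in clusters, so that a stretch of chromatin can hold one initiation site with a bound protein and another without it, side by side. Where a flanking origin has a RepID region inside the next origin, an origin with no mapped RepID region can be set beside a neighbour that overlaps one.

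Nascent strands were isolated from asynchronous HCT116 cells, a colorectal carcinoma line, by size fractionation and lambda exonuclease digestion, which removes DNA without an RNA primer, and were sequenced. The WT cells carried unaltered RepID, and the KO cells were stable HCT116 cells selected with puromycin after CRISPR-Cas9 targeting of RepID. Both were called against the same HCT116 genomic DNA. RepID binding was taken from an anti-Flag ChIP-Seq of untreated, unsynchronised U2OS cells, an osteosarcoma line, that stably expressed RepID with a FLAG tag, so that RepID was mapped in another line than the origins, and as a tagged protein from a transgene. Each list rests on 1 library. There is no spread between replicates, no test between conditions was made, and each interval given covers counting error over neighbouring regions that are not independent. Read totals are not part of the lists and the depth is unknown. The KO list held 159667 regions against 78859 in the WT list. It is also longer than the set of KO regions counted in the text of the study, how the sets relate is not stated in the sources used here, and each kept share depends on the length of the list. The lists hold no measure of RepID abundance, so the knockout itself was not checked here.

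The flanking origins ran from 200 to 19600 bp in width, with a median of 2400 bp and quartiles at 1400 and 4400 bp. Their WT scores, whole numbers of unstated meaning, ran from 23 to 6998 with a median of 120. These medians equal those of the 76059 WT origins together, which were 2400 bp and 120. The 12103 WT origins overlapped by a RepID region were wider and scored higher, with medians of 3200 bp and 293. The 9877 WT origins whose nearest RepID region lay over 2 and up to 10 kb away had medians of 2600 bp and 128, close to those of the flanking origins.

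The gap to the nearest RepID region had a median of 1360.5 bp, with quartiles at 901.75 and 1691.25 bp, and no flanking origin abutted a RepID region, the smallest gap being 2 bp. The RepID region lay towards lower coordinates for 753 flanking origins and towards higher coordinates for 765, an even split (50.4% towards higher coordinates, exact binomial 95% confidence interval 47.8 to 52.9%). A single RepID region lay within 2 kb of 1355 flanking origins, and 163 had several, up to 4. Both sides held one at 25 flanking origins. The flanking RepID regions, 1460 in number, ran from 197 to 4341 bp in width and had MACS scores from 100.07 to 2823.08, with a median over the flanking origins of 165.105.

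For 1037 flanking origins (68.3%, 65.9 to 70.6%) the RepID region lay in another WT origin, and for the other 481 it lay in none. These kinds of flanking origin differed in their gaps. Where another WT origin held the RepID region the median gap was 1477 bp, and only 11 gaps were at most 500 bp. Where no WT origin held it the median gap was 767 bp, and 182 gaps were at most 500 bp. No WT regions in the list lay closer together than 800 bp, and the gap between a flanking origin and its RepID-holding neighbour ran from 800 to 2200 bp with a median of 1000 bp, so short gaps to a RepID region inside a neighbour were rare by construction. The plot of gaps shows both kinds.

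**Figure D1:**
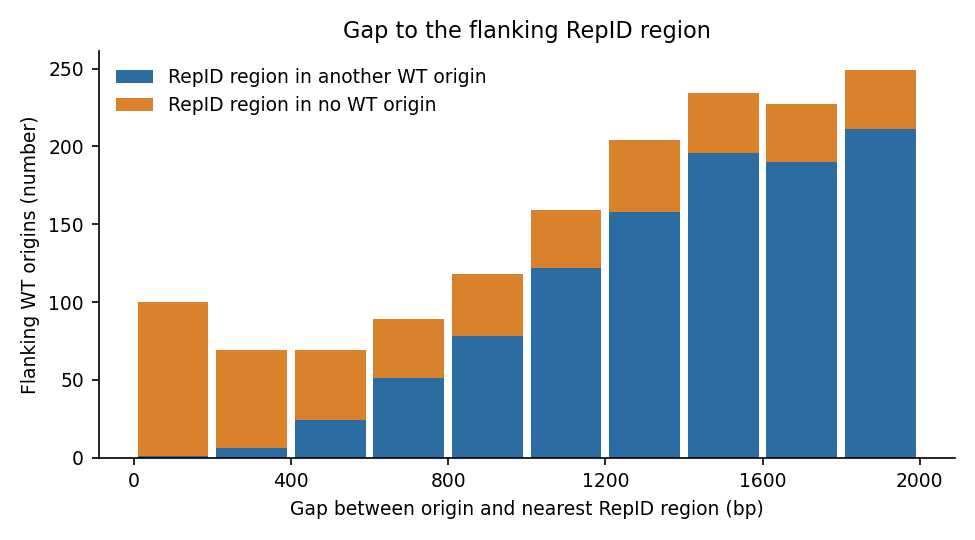
Number of flanking WT origins by the gap in bp to the nearest RepID region, in bins of 200 bp, split by whether that RepID region overlaps another WT origin. The bin up to 200 bp holds 100 origins, 99 of them with the RepID region in no WT origin, and the last bin holds 249, of which 211 have it in another WT origin.

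RepID regions held by a neighbour were stronger than those outside origins. The 1023 flanking RepID regions inside another WT origin had a median MACS score of 198.74 and a median width of 575 bp. The 437 outside any WT origin had medians of 132.09 and 421 bp. The other RepID regions of these chromosomes differed in the same way, with medians of 210.71 and 585 bp inside a WT origin (n = 19965) and 150.245 and 456 bp outside (n = 2472). Of the 437, 105 (24.0%) had a WT origin within 2 kb on both sides and so sat between origins. The flanking origins themselves also differed, with a median WT score of 137 and a median width of 2600 bp where a neighbour held the RepID region, against 98 and 2000 bp where none did.

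A KO region overlapped 853 of the 1518 flanking origins by at least 1 bp (56.2%, 53.7 to 58.7%), which are called kept here. Over the 76059 WT origins of the same chromosomes and widths the kept share was 61.1%. The other 665 flanking origins (43.8%) had no overlapping KO region, against 38.9% over the 76059. The kept share of flanking origins was within counting error of that of overlapped origins, 54.4%, with a difference of 1.83 percentage points (Newcombe 95% confidence interval -0.835 to 4.46). It was also within counting error of the 58.6% of the origins over 2 to 10 kb from RepID, with a difference of -2.45 points (-5.14 to 0.213). Against the 52561 origins over 10 kb away, of which 63.3% were kept, the difference was -7.07 points (-9.61 to -4.56), larger than counting error.

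The position of the KO region set flanking and overlapped origins apart. A KO region covered the centre of 655 flanking origins (43.1%, 40.6 to 45.7%), against 45.9% over the 76059 origins. Among overlapped origins the centre was covered in 28.3%, a difference of 14.9 points (12.3 to 17.5) that exceeded counting error. Among origins over 2 to 10 kb from RepID it was covered in 44.0%, and the difference of -0.852 points (-3.51 to 1.84) did not exceed it. Among origins over 10 kb away it was covered in 50.3%, and flanking origins differed from these by -7.20 points (-9.70 to -4.65), more than counting error. When KO regions had to cover at least 50% of the origin, 43.2% of flanking origins, 28.4% of overlapped origins, 44.2% of those over 2 to 10 kb away and 46.6% of the 76059 qualified. Complete coverage was seen at 344 flanking origins (22.7%) and at 9.10% of overlapped origins, against 22.2% of those over 2 to 10 kb away and 25.4% of the 76059. Flanking origins were thus overlapped by KO regions about as often as overlapped ones, and had one at their centre more often. With each KO region trimmed to 500 bp on both sides of its own midpoint the centre share of flanking origins itself fell to 13.0%. The centre difference to overlapped origins was then 4.39 points (2.71 to 6.25), which rests on lower shares than the 14.9 points. With the KO list cut to its top-scoring regions, as many as in the WT list, the difference in kept share was 6.07 points (3.47 to 8.70) and exceeded counting error.

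With distance to RepID read in steps, centre coverage was lowest in overlapped origins, higher in flanking ones and highest from 50 to 300 kb. It did not rise at each step. Flanking origins with a gap of at most 500 bp had a KO region at the centre in 39.9% (32.9 to 47.2%, n = 193). From 500 to 1000 bp the share was 42.1% (n = 252), from 1000 to 1500 bp 41.3% (n = 475) and from 1500 to 2000 bp 46.2% (n = 598). The intervals of these steps overlap one another and that of the origins from 2000 to 3000 bp, 43.5%, and none of them reaches the 28.3% of overlapped origins. Farther out the share was 44.9% from 5 to 10 kb, 46.6% from 10 to 50 kb and 54.0% (53.3 to 54.6%) from 50 to 300 kb. Kept shares over the same steps were 53.4, 54.0, 54.1 and 59.7%. At the 2000 bp limit, the 134 origins with gaps over 1900 bp had a median WT score of 124.5 and 56.7% were kept, and the 137 just outside, up to 2100 bp, had a median score of 117 and 56.9% were kept.

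**Figure D2:**
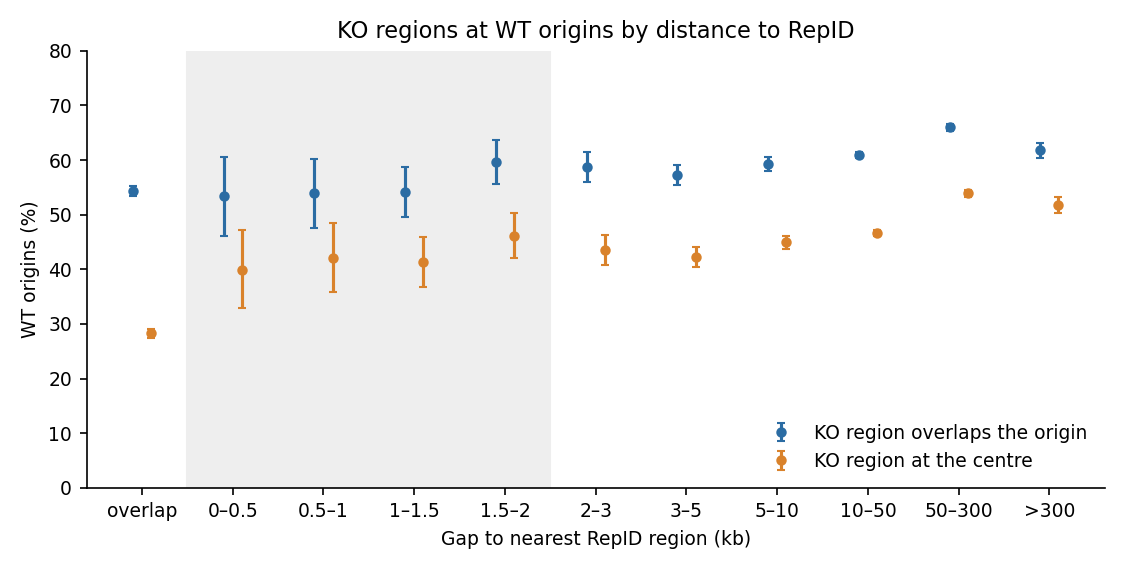
Percent of WT origins on chromosomes 1 to 22 under 20 kb with an overlapping KO region (blue) or a KO region at the centre (orange), by gap in kb to the nearest RepID region, with exact binomial 95% confidence intervals as bars. The shaded steps are the flanking origins, where 39.9 to 46.2% have a KO region at the centre, against 28.3% of the origins overlapped by RepID.

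WT score and width were looked at as well, since wide origins are overlapped by a KO region more easily. The flanking origins were split into 4 groups of similar size by WT score. From the lowest scores to the highest, 45.3, 56.7, 57.7 and 65.5% of them were kept. Overlapped origins grouped by the same limits were kept in 30.4, 41.3, 47.9 and 65.7%. The nearly equal kept shares overall thus held unlike values in the lower 3 groups. The highest group had no upper limit, and its scores reached 6998 among flanking and 25185 among overlapped origins. Its nearly equal shares therefore do not compare like scores. The share of flanking origins with a KO region at the centre was nearly flat, at 42.2, 44.1, 44.4 and 41.8%, and stood above that of overlapped origins in each group, at 23.4, 26.8, 25.2 and 31.3%. Split by width instead, flanking origins of at most 1400 bp had a KO region at the centre in 39.4% and those over 4400 bp in 46.0%, against 22.8% and 36.4% of overlapped origins. With overlapped origins weighted to the scores and widths of the flanking ones, the difference in kept share was 6.96 points and that in centre share 14.1 points.

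**Figure D3:**
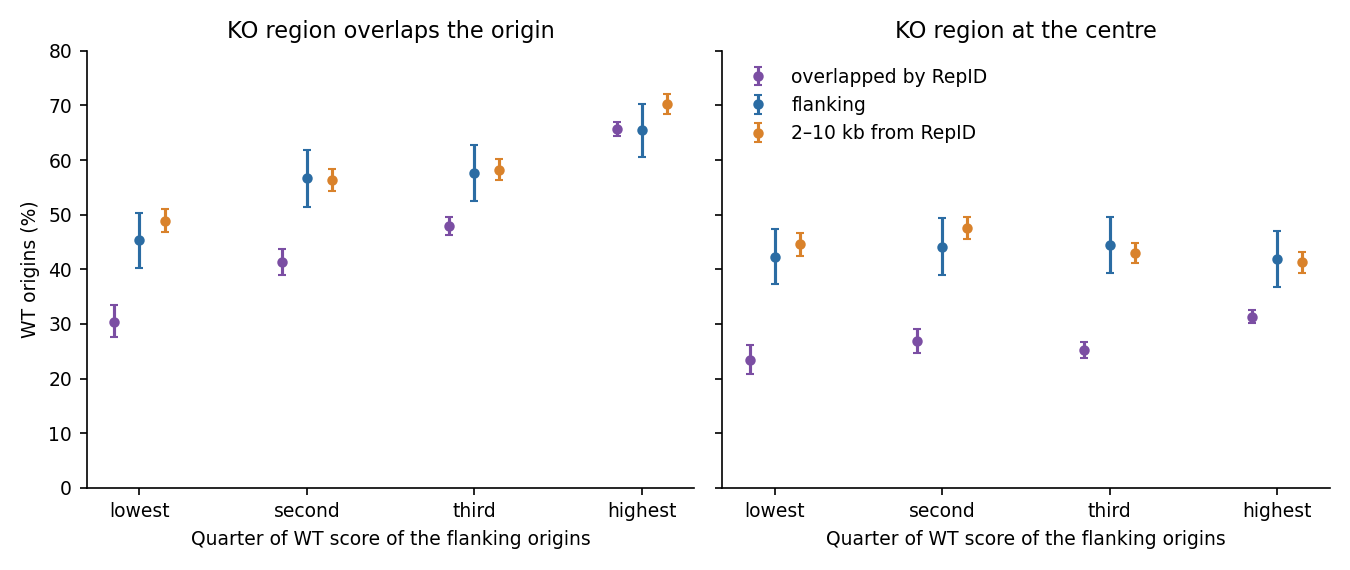
Percent of WT origins with an overlapping KO region (left) or a KO region at the centre (right) in 4 groups of WT score, with limits taken from the flanking origins and exact binomial 95% confidence intervals as bars. At the centre, flanking origins (blue) lie between 41.8 and 44.4% in the 4 groups and overlapped origins (purple) between 23.4 and 31.3%. The highest group has no upper limit.

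Kept flanking origins were wider and scored higher than lost ones, with median widths of 2800 and 2000 bp and median WT scores of 141 and 101. Their gaps to RepID hardly differed, with medians of 1396 and 1316 bp, nor did the MACS scores of the flanking RepID regions, with medians of 167.06 and 162.81. Flanking origins whose RepID region lay in another WT origin were kept in 57.6% and those whose RepID region lay in none in 53.2%, a difference of 4.35 points (-1.01 to 9.71) within counting error. By side, 55.4% were kept with RepID only towards lower coordinates and 56.9% with RepID only towards higher ones. Of the 25 flanking origins with RepID on both sides, 15 were kept.

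Pairs of neighbouring origins put the comparison inside single loci. The 1037 flanking origins with the RepID region in another WT origin had 1010 distinct RepID-holding neighbours, of which some served a flanking origin on either side. A KO region overlapped both origins of 394 pairs, the flanking origin alone in 203, the RepID-holding neighbour alone in 173 and neither in 267. The kept shares, 57.6% for flanking origins and 54.7% for their neighbours, differed by 2.89 points (paired Wald 95% confidence interval -0.768 to 6.55), within counting error. In the 985 pairs whose neighbour was under 20 kb, the width limit of the flanking origins themselves, the difference was 4.37 points (0.658 to 8.07) and exceeded counting error. At the centre the counts were less even. A KO region covered the centre of the flanking origin alone in 277 pairs and of the neighbour alone in 127, with 183 pairs covered at both centres and 450 at neither. The centre shares were 44.4% and 29.9%, a difference of 14.5 points (10.8 to 18.2) that exceeded counting error. With trimmed KO regions, which gave a centre share of only 13.0% over all flanking origins, the difference was 3.95 points (1.47 to 6.44).

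The RepID-holding neighbours had higher WT scores in 726 of the 1037 pairs, with a median of 301 against 137, and 52 of them were 20 kb or wider. In the 726 pairs in which the neighbour scored higher, flanking origins were kept less often than neighbours, 53.7% against 59.5%, yet had a KO region at the centre more often, 43.5% against 31.1%. In the 311 pairs in which the neighbour scored no higher, flanking origins led on both readings, with 66.6% against 43.4% kept and 46.3% against 27.0% covered at the centre. Pairs in which the neighbour was no wider than the flanking origin, 427 in number, gave 64.4% against 42.2% kept, and the 610 in which it was wider gave 52.8% against 63.4%. The kept share was thus higher for the neighbour where it was wider or scored higher, and for the flanking origin otherwise. The differences were of unequal size, at -5.79 and 23.2 points by score and -10.7 and 22.2 points by width. What set them was not tested. The centre share was higher for the flanking origin in all of these subsets.

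In 285 loci a flanking origin had a RepID-holding neighbour on 1 side and, within 2 kb on the other, a WT origin that no RepID region overlapped. These runs of 3 origins allow the side facing RepID to be set against the opposite side. The RepID-holding neighbours were kept in 51.9%, the flanking origins in 60.0% (171 of 285) and the opposite neighbours also in 60.0%. The kept share of flanking origins exceeded that of the RepID-holding neighbours by 8.07 points (0.885 to 15.3), more than counting error. A KO region covered the centre of 29.1% of the RepID-holding neighbours, 44.9% of the flanking origins and 42.8% of the opposite neighbours. The flanking origin exceeded its RepID-holding neighbour at the centre by 15.8 points (8.51 to 23.1), and differed from its opposite neighbour by 2.11 points (-4.97 to 9.18), within counting error. The median WT scores of these were 314 for RepID-holding, 169 for flanking and 144 for opposite origins.

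**Figure D4:**
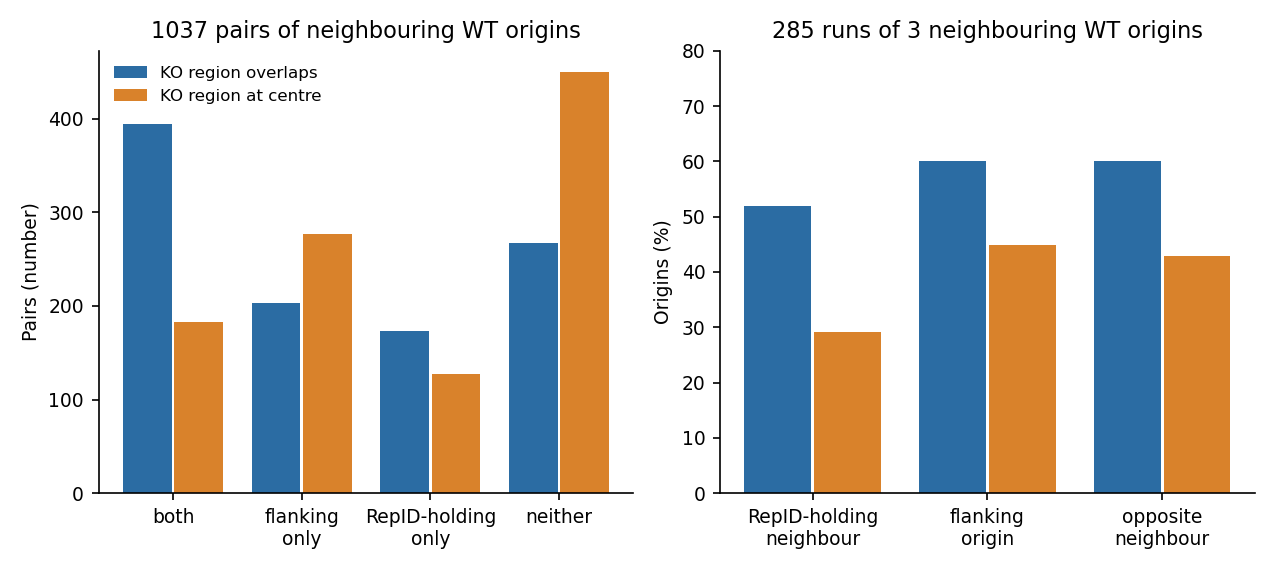
Left, number of pairs of a flanking WT origin and its RepID-holding neighbour by which of them has an overlapping KO region (blue) or a KO region at the centre (orange). Right, percent of origins with each in runs of RepID-holding neighbour, flanking origin and opposite neighbour, where centre coverage is 29.1, 44.9 and 42.8%. Each bar is 1 count or share without replicates.

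The RepID region beside a flanking origin was itself seldom covered in KO cells. A KO region covered its midpoint for 332 of the 1518 flanking origins (21.9%), against 43.1% for the centre of the flanking origin. For 481 of these the RepID region lay in no WT origin, so its midpoint was outside origins by definition. For the 1037 with the RepID region in another WT origin the shares were 22.8% and 44.4%. Over all 1518, the flanking origin's centre alone was covered in 422 cases and the RepID midpoint alone in 99. Of the 853 kept flanking origins, 493 (57.8%) had no KO region on the RepID region at all. In 271 (31.8%) a single KO region spanned from the origin onto the RepID region. For comparison, a KO region overlapped 31.7% of all flanking RepID regions inside another WT origin and 23.3% of those in none. For the other RepID regions of these chromosomes the shares were 29.2% inside a WT origin and 19.5% outside. Among the 665 lost flanking origins, 79 had a KO region on their RepID region. These were 68 of the 440 where another WT origin held it and 11 of the 225 where none did. A KO region on the RepID region was thus more frequent beside kept flanking origins than over all flanking RepID regions. Beside lost ones it was less frequent. The flanking RepID regions inside a WT origin were covered at their midpoint in 235 of 1023 (the exact interval ran from 20.4 to 25.7%), against 20.3% of the 19965 other RepID regions in WT origins of these chromosomes. Those outside any WT origin were covered in 20.4% (16.7 to 24.5%, n = 437), against 15.3% of the 2472 others.

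Profiles drawn from the RepID midpoint, with the flanking origin always to the right, showed where KO regions lay. They hold the 1493 flanking origins with RepID on 1 side. KO coverage was lowest at the RepID region, 21.2% at 100 bp beyond its midpoint, and rose to 39.7% at 2600 bp on the side of the flanking origin. On either side it was 27.8% and 29.8% at 9 to 10 kb, so coverage at RepID lay below the level around it. Where a neighbour held the RepID region, KO coverage was 22.5% at the RepID midpoint and WT coverage 95%, the latter a product of how the members were chosen. Where no WT origin held it, KO coverage was 19.5% at the RepID midpoint, 41.4% at its highest point over the flanking origin and 25% at 9 to 10 kb on the side away from it. In this group the midpoint lay outside WT origins by definition (WT coverage 0%). Its contrast with the flanking origin therefore sets a point outside origins against an origin, and no conclusion on RepID is drawn from it.

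**Figure D5:**
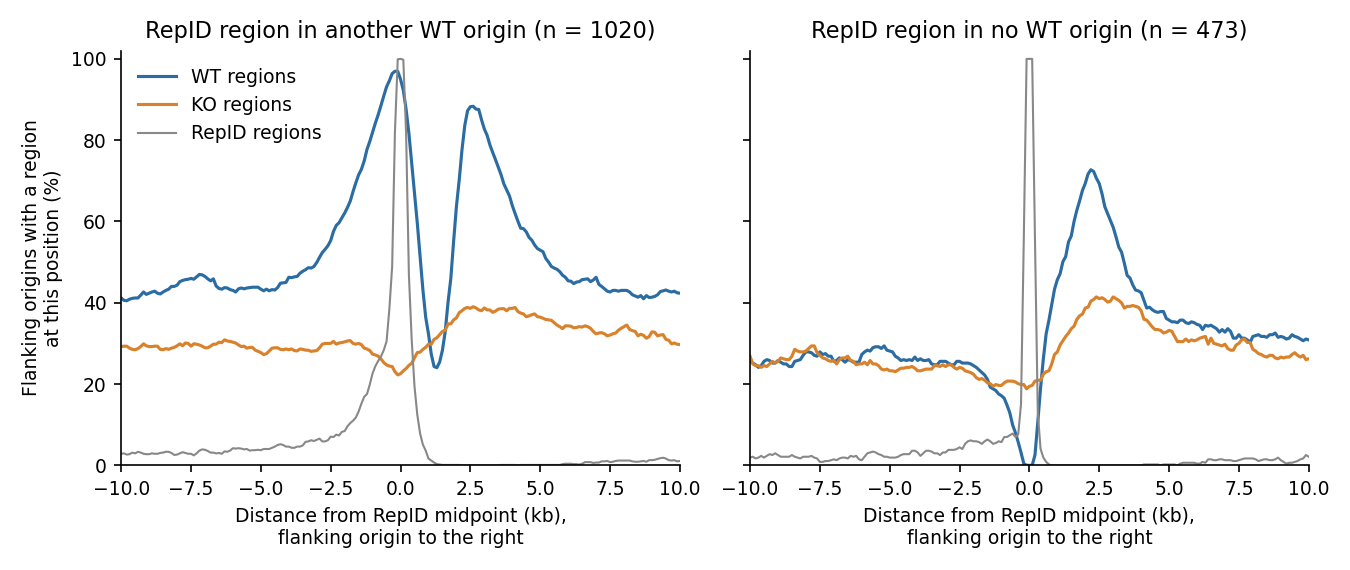
Percent of flanking origins with a WT (blue), KO (orange) or RepID (grey) region at each position, in kb from the midpoint of the flanking RepID region, with loci turned so that the flanking origin lies to the right. KO coverage is 22.5% (left) and 19.5% (right) at the midpoint and peaks over the flanking origin at 39.0% and 41.4%. On the right the midpoint lies outside WT regions by definition.

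Points at equal distances beyond the ends of the flanking origin gave the same picture. At 2000 bp beyond the end facing RepID a KO region was present for 23.2% of the 1493 flanking origins, and at 2000 bp beyond the other end for 29.1%. The KO region was present on the side of RepID alone in 201 cases and on the other side alone in 289. WT coverage at these points ran the other way, at 68.1% and 29.7%, as the choice of members favours. At 500 bp the KO shares were 28.2% and 30.2%, and at 5000 bp 27.4% and 31.1%.

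Averaged over the 1493 flanking origins with RepID on 1 side, KO coverage was nearly even within the origin. Each origin was cut at its midpoint, and KO regions covered on average 40.5% of the part facing RepID and 41.7% of the part away from it. The mean difference was -1.17 points (95% interval over origins -2.71 to 0.369), with an SD of 30.4 points between origins. The part away from RepID was covered more in 265 origins and less in 224. In the other 1004 both parts were covered equally, as they must be where KO coverage is absent or complete. Over the 498 partly covered origins the means were 53.1% and 56.6%, a difference of -3.51 points (-8.13 to 1.10). For flanking origins with the RepID region in no WT origin the difference was -2.69 points (-5.28 to -0.105). In origins over 2 to 10 kb from RepID it was 0.00324 points. Among the 838 kept flanking origins with RepID on 1 side, the KO region had a median width of 4000 bp, and its centre lay towards RepID in 384 and away from it in 433. It reached past the end facing RepID in 431 cases (51.4%) and past the other end in 494 (58.9%). In kept origins over 2 to 10 kb from RepID these shares were 53.8% and 54.2%.

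For the 665 lost flanking origins the nearest KO region lay at a median distance of 4000 bp, with quartiles at 2000 and 9800 bp. It lay within 2 kb of 181 (27.2%) and over 10 kb from 158 (23.8%). Of the 655 with RepID on 1 side, the nearest KO region was on the side of RepID for 303 and on the other side for 348.

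Flanking origins were found on all 22 autosomes, from 9 on chromosome 21 to 146 on chromosome 1. As a share of the WT origins under 20 kb on each chromosome, they ranged from 0.701% on chromosome 4 to 4.03% on chromosome 22. Among the 20 chromosomes with at least 20 flanking origins, the kept share was lowest on chromosome 19, at 29.0% (20.4 to 38.9%, n = 100), and highest on chromosome 18, at 77.8% (57.7 to 91.4%, n = 27). Chromosome 19 was also low for its WT origins together, at 42.0%, though this lies above the interval of its flanking origins. Its 647 overlapped origins were kept in 43.4%, so on this chromosome flanking origins were kept less often than overlapped ones. On chromosome 18 the WT origins together were kept in 59.0%. The other high shares were near those of their chromosomes, with 70.9% of 117 flanking origins kept on chromosome 17, as of its WT origins together, and 73.8% of 65 on chromosome 8 against 75.5%. Centre coverage of flanking origins exceeded that of overlapped origins on 21 of the 22 autosomes. The exception was chromosome 19, where it was 21.0% against 22.3%. The kept share of flanking origins exceeded that of overlapped origins on only 11 of the 22. Against origins over 2 to 10 kb from RepID, the kept share of flanking origins was lower on 18 of the 22. Among the 20 chromosomes with at least 20 flanking origins, it was lower on 16. The centre share was lower than that of these origins on 14 of the 22. These directions were not tested across chromosomes. Without chromosome 19 the kept share of flanking origins was 58.1% and the difference to overlapped origins 3.13 points (0.384 to 5.83), which then exceeded counting error.

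Single loci show the range of these patterns, with positions on build hg19 counted from 1. The highest-scoring kept flanking origin beside a RepID-holding neighbour lay on chromosome 20 from 61052801 to 61072400, with a WT score of 4793. Its RepID region, from 61051125 to 61052067 (MACS score 639.32), lay in a WT origin from 61047201 to 61051600 that no KO region overlapped. KO regions from 61056601 to 61058400 and from 61063601 to 61066400 lay inside the flanking origin and covered 23.5% of it. Here the flanking origin was kept and the RepID-holding one was not, although neither had a KO region at its centre.

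On chromosome 2, a flanking origin from 114344201 to 114360200 (WT score 4578) had RepID regions at gaps of 1816 and 1158 bp on its sides. KO regions covered 86.3% of it. The nearer RepID region, from 114361359 to 114361710 (MACS score 111.61), lay in a small WT origin from 114361001 to 114362400 that was kept at its edge alone. On chromosome 16, the flanking origin from 89634001 to 89645200 (WT score 3806) and its RepID-holding neighbour from 89622001 to 89633000 both had a KO region at the centre. This is a locus in which the RepID midpoint too was covered by a KO region.

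Among lost flanking origins beside a RepID-holding neighbour, the highest WT score, 5487, belonged to chromosome 16 from 1110401 to 1125800. The nearest KO region lay 16400 bp away, inside the neighbouring WT origin from 1127001 to 1185600, which held the RepID region and, at WT score 22284, was one of the broad neighbours. A flanking origin at 140320601 to 140334400 of chromosome 9 had a WT score of 4208, and another at 2725201 to 2741400 of chromosome 19 had 2512. At neither locus did a KO region overlap the flanking origin or its RepID-holding neighbour. The flanking origins on chromosomes 9 and 19 had high WT scores, and were absent from the KO list together with their RepID-holding neighbours.

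Where the RepID region lay in no WT origin, the 3 highest-scoring kept flanking origins differed in how much of them KO regions covered. The origin on chromosome 12 from 76801 to 94800 (WT score 6998) had RepID regions on both sides and lay wholly within a KO region from 64601 to 95800 (KO score 3107). The origin on chromosome 1 from 11601 to 27400 (WT score 6181) was also covered completely, by a KO region from 11601 to 28800. The next, on chromosome 16 from 89913801 to 89930800 (WT score 2477), was covered over 14.1% of its width and not at its centre. The highest-scoring lost one, on chromosome 7 from 76628601 to 76637400 (WT score 2711), had its nearest KO region 3600 bp away. For the next, on chromosome 12 from 133156801 to 133170800 (WT score 2125), that distance was 34000 bp. For another on chromosome 7, from 4838001 to 4844800 (WT score 1261), it was 21400 bp.

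The strongest RepID region beside a flanking origin, on chromosome 7 from 157253945 to 157254384 with a MACS score of 2823.08, lay in no WT origin. It was 216 bp from a flanking origin from 157254601 to 157266000, and a KO region covered 26.3% of that origin and not the RepID midpoint. On chromosome 3 a RepID region from 75717819 to 75722159 (MACS score 2398.91) lay beside a flanking origin from 75723401 to 75724800, and 1 KO region from 75712201 to 75756600 ran over both. On chromosome 17 a RepID region from 72426517 to 72429078 (MACS score 2240.59) lay beside a flanking origin from 72416401 to 72424800. There a KO region from 72412201 to 72424800 covered the flanking origin completely and ended at its border. The RepID-holding neighbour was also overlapped by a KO region, but its centre and the RepID midpoint were not covered. Of these 3 strongest RepID regions, 1 had a KO region at its midpoint.

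On chromosome 20 from 61181401 to 61197200, a flanking origin with RepID on both sides was covered over 11.4% of its width, by a KO region from 61195401 to 61200400 that also covered the nearer RepID midpoint.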

How the data were processed

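Nascent strands of WT and KO HCT116 cells and FLAG-RepID chromatin of U2OS cells were sequenced, with 1 library each. The deposited values are a score per enriched region. For RepID the authors called regions with MACS against genomic input. For nascent strands the score is a whole number whose meaning is not stated. Per the labels, both lists were called against HCT116 genomic DNA, which was not analysed here. The submitters' processing notes name MACS, SICER and hg19. All WT and KO borders lie on a grid of 200 bp.

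Overlaps, gaps and coverage were computed with SciPy 1.17.1, pandas 2.3.3 and numpy 2.4.6 under Python 3.11.15, and tested on simulated data against bedtools 2.31.1. The nearest RepID region was taken as the flanking one. Shares have exact binomial, differences of shares Newcombe and pairs Wald intervals. For the mean difference between the parts of an origin the interval is 1.96 standard errors over origins on either side. The depth of each list is unknown, and scores were compared within a list. Named loci are the 3 with the highest WT score in each of 4 classes (RepID in another WT origin or not, kept or lost), the 3 with the highest RepID score and the 3 highest-scoring with RepID on both sides. Members, groups and readings were chosen with earlier results of these data known. Runs of 3 origins, subsets of pairs, the centre share of pairs and values without chromosome 19 were added after the data were seen. Sequences and gene annotation were not used here, because no genome on the coordinates of the lists was at hand.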

Additional observations from a re-analysis of the deposited data

How the results depend on the processing

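Over 11 results and 89 alternatives, 66 values stayed within the interval of the main result (for the number of origins, within 1.5 times). Another 23 moved and 0 reversed, where reversed means a change of sign in a difference whose interval excluded 0. Some differences whose interval held 0 did change sign. The kept share against overlapped origins was -0.659 points with a gap limit of 1000 bp, that of pairs -2.41 with KO regions counted at a gap of 2000 bp, and the centre share against origins over 2 to 10 kb away 0.878 with WT scores at or above the median and 0.566 with as many top-scoring KO regions as there are WT regions (the limited KO list). What caused each move was not tested. The unknown depth and the single library per condition limit each statement on a region found in 1 list, and shares depend on how long the KO list is. Samples could not be paired between conditions, because the labels give no replicate numbers and each group has 1 sample. The pairs analysed here are pairs of neighbouring origins.

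The number of flanking origins was 445 with a gap limit of 1000 bp, 763 with RepID scores and 757 with WT scores at or above the median. The share with the RepID region in another WT origin was 36.0% with the 1000 bp limit, 83.4% with the stricter RepID and 59.2% with the stricter WT one, and 56.3% with merging of WT regions under 1000 bp apart. The kept share was 61.6% with the stricter WT threshold, 41.2% with the limited KO list, 41.7% with KO regions trimmed to their central part, 500 bp each way, 43.2% at 50% coverage and 68.1% at a gap of 2000 bp. The centre share was 34.1% with the limited KO list and 13.0% with trimmed KO regions.

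The difference in kept share to overlapped origins was 6.07 points with the limited KO list, 14.8 at 50% coverage and 6.96 after weighting by score and width. The difference in centre share was 4.39 with trimmed KO regions, and 12.8 to 16.1 under the other alternatives. The difference between the part facing RepID and the part away was -4.08 with the 1000 bp limit. For pairs, the difference in kept share was 11.3 with the 1000 bp limit, 14.9 at 50% coverage and -2.41 at a gap of 2000 bp, and that in centre share was 3.95 with trimmed KO regions. The differences to origins over 2 to 10 kb from RepID stayed within their counting intervals under each alternative.

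Some intervals that held 0 no longer did so. The difference in kept share to origins over 2 to 10 kb from RepID was -4.93 (-9.68 to -0.250) with the 1000 bp limit, -4.08 (-7.82 to -0.378) with the stricter RepID threshold and -3.22 (-6.41 to -0.0787) with merging. That to overlapped origins was 6.07 (3.47 to 8.70) with the limited KO list, 14.8 (12.2 to 17.5) at 50% coverage and 3.13 (0.384 to 5.83) without chromosome 19. For pairs, the kept difference was 11.3 (1.45 to 21.0) with the 1000 bp limit, 4.82 (1.65 to 7.99) with the limited KO list, 4.34 (0.000316 to 8.68) with trimmed KO regions, 14.9 (11.3 to 18.4) at 50% coverage and 3.86 (0.0699 to 7.65) without chromosome 19. The coverage of the part facing RepID minus that of the part away was -4.08 (-6.81 to -1.34) with the 1000 bp limit and -2.68 (-4.82 to -0.540) with the stricter RepID threshold.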

Other observations

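Of the 1460 flanking RepID regions, 58 were the nearest RepID region of a flanking origin on each side. In 18 of these 58 loci a KO region overlapped both flanking origins, in 25 it overlapped 1 of them and in 15 neither.

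Flanking origins were also put in 4 groups of similar size by the MACS score of their RepID region. In these groups a KO region covered the RepID midpoint in 20.8% (16.8 to 25.2%), 27.7% (23.3 to 32.5%), 24.0% (19.8 to 28.6%) and 15.0% (11.6 to 19%), from the lowest scores to the highest. The flanking origins were kept in 50.3, 61.5, 55.9 and 57.1%. The share whose RepID region lay in another WT origin was 51.1, 59.4, 73.1 and 89.7% over the same groups. These are descriptions over loci of single libraries.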
